A study of Homo sapiens with 12 samples.

Results

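The serum amyloid A genes SAA1, SAA2 and SAA4 and the readthrough locus SAA2-SAA4 were followed across 4 groups of cultured cells, 4 genes of the 17818 in the deposited table. They were chosen by name after SAA1 and SAA2 had been seen to be lower in SW480 cells with USP51, so their values in SW480 are given as a description and carry no test. SW480 and HCT116 are established human colorectal cancer lines, and each was studied with the control vector (labelled NC) and with USP51 overexpressed. USP51 is a protease that takes ubiquitin off other proteins. All 4 groups were otherwise untreated, grown in DMEM with fetal bovine serum, and labelled as 3 libraries each, 12 in all, of total RNA. The labels do not say whether a group was 1 clone or a pool of cells. The values are the authors' mean of each group, since columns of single libraries carry codes that no label explains. Differences below therefore have no SD and no p-value. The group means are named with a letter C or E, read here as control and USP51, and every direction rests on that reading.

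Serum amyloid A proteins are small apolipoproteins of high-density lipoprotein. SAA1 and SAA2 are acute-phase genes: in liver, and in epithelia such as that of the gut, NF-kB, C/EBP factors and STAT3 turn them on in response to interleukin-1, interleukin-6 and TNF. SAA4 is a constitutive member of the family made mainly by the liver, and SAA2-SAA4 is a transcript that starts at SAA2 and runs on into SAA4. SAA1 is also the precursor of the amyloid that deposits in chronic inflammation.

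SAA1 (NCBI gene 6288) lies on chromosome 11, 18266264 to 18269967, in GRCh38. SAA2 (gene 6289, 18238236 to 18248668), SAA4 (gene 6291, 18231355 to 18236802) and SAA2-SAA4 (gene 100528017, 18231355 to 18248668) lie to its left on the other strand. SAA2-SAA4 covers SAA2 and SAA4 whole, so the reads of these 3 genes come from overlapping models. The coding sequences of SAA1 and SAA2, as GENCODE release 29 gives them on GRCh38, are shown because they set how well reads can be told apart. Each has 369 bases, of which 358 are the same (97.0%). Bases 201 to 350, counted from the start codon, hold 10 of the 11 bases that differ, which are in capitals:
SAA1: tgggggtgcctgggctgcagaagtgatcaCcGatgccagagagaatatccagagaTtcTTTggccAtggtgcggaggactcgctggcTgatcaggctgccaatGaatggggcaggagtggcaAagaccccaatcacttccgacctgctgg
SAA2: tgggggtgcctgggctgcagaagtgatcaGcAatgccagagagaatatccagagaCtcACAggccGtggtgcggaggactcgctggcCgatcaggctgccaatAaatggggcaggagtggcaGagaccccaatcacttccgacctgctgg
The remaining difference is at base 43, and bases 44 to 229 form a run of 186 letters that both genes share.

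Over whole transcripts, 34.1% of the 50-base windows of the main SAA1 model occur letter for letter in the main SAA2 model, and 16.9% of the 100-base windows. A read from such a window cannot be placed by its sequence alone. SAA4 is less alike: its coding sequence has 393 bases and matches SAA1 at 73.7% of the 369 aligned positions, and no window of 50 bases is shared between them. SAA2-SAA4 has few letters of its own. Of its 694 windows of 50 bases, 44 occur in no other member, and these mark the junction where 3 exons of SAA2 join the 3 exons of SAA4 that follow. The junction is shown with the SAA4 part in capitals, 30 bases from each side:
SAA2-SAA4 junction: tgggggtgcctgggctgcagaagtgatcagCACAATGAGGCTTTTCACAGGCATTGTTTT
Neither the labels nor the table name the read length, the counting tool or its way of sharing reads between paralogs. The sum over the family is therefore given beside each member.

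In SW480 the acute-phase members were abundant and stood at less than 0.5 of their control level with USP51. For SAA1 the SW480 means were 1352 TPM (NC) and 623.5 TPM (USP51), and the HCT116 means 0.130 and 0.407 TPM. The 2 SW480 means are far above the 2 HCT116 means. In counts, SAA1 stood at 3493 in SW480 controls and 1677 with USP51, a ratio of counts per total count of 0.471. Its 95% exact interval was 0.444 to 0.50. Such an interval takes a mean for 1 library's count and holds counting error alone, not the spread between replicates. On log2(TPM + 1), the scale of every log2 ratio here, the difference was -1.12. In RNA from whole cultures, fewer cells that express a gene and less of its RNA per cell cannot be told apart.

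SAA2 was likewise lower with USP51 in SW480, at a lower level than SAA1, and near absent in HCT116. Its means were 196.1 TPM in SW480 controls, 83.4 TPM in SW480 with USP51, 0.0167 TPM in HCT116 controls and 0.020 TPM in HCT116 with USP51. Both HCT116 means held 0.333 counts, so those 2 groups have no order. The SW480 counts were 805.0 and 359.0, a ratio of 0.438 (0.385 to 0.496) and a log2 ratio of -1.22. The intervals of SAA1 and SAA2 overlap.

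The readthrough locus was scarce. SAA2-SAA4 had SW480 means of 6.32 TPM (NC) and 2.62 TPM (USP51), and was listed at 0 in both HCT116 groups. Its SW480 counts were 37.4 and 16.3, a ratio of 0.427 with a wide interval, 0.220 to 0.782, and a log2 ratio of -1.01. That value lies just past 2-fold on log2(TPM + 1) and was -0.89 with FPKM and -0.75 in CPM, since a pseudocount of 1 shrinks the ratio of a gene with so few reads.

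SAA4 itself was at the edge of detection. Its SW480 means were 0.443 TPM (NC) and 0.833 TPM (USP51), from 1.61 and 3.15 counts, and it was listed at 0 in both HCT116 groups. With both means at or under 3 counts once rounded, no ratio is given, and SAA4 did not reach 1 TPM in any group.

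**Figure D1:**
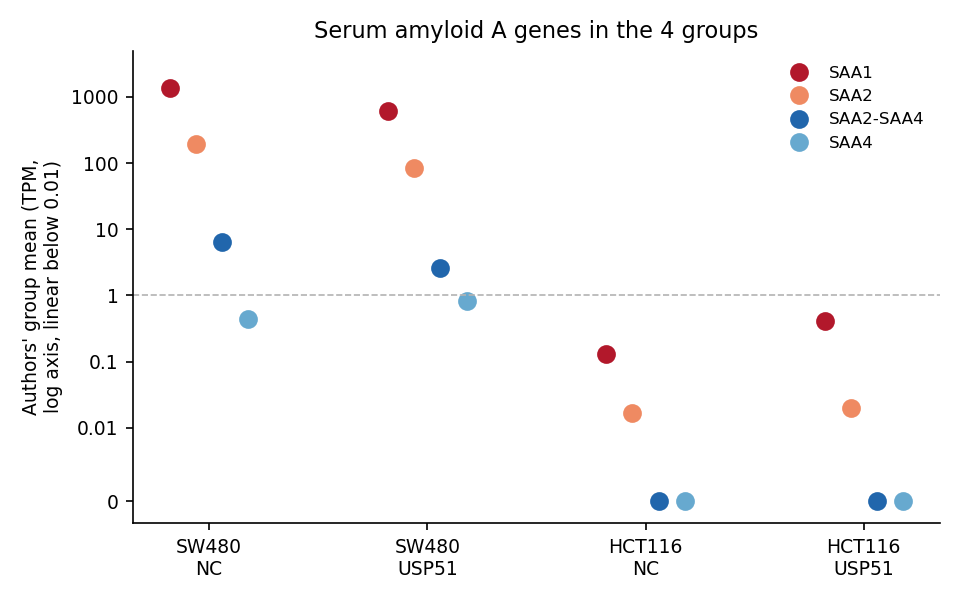
Authors' mean TPM (log axis, linear below 0.01) of each gene in each of the 4 groups, 1 point per mean with no replicate spread, and a dashed line at 1 TPM. SAA1, SAA2 and SAA2-SAA4 are lower with USP51 than with NC in SW480, and no member reaches 1 TPM in HCT116.

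Summed over the 4 members, the family's SW480 level was 1555 TPM with NC and 710.3 TPM with USP51. The counts were 4337 and 2055, a ratio of 0.465 (0.441 to 0.490) and a log2 ratio of -1.13, so the controls held 2.15 times as many reads per total. The sum of counts does not change when reads pass from one member to another, whereas the sum of TPM can, since it divides by transcript length. SAA1 made up 80.5% of the family's counts in controls (exact interval 79.3 to 81.7%) and 81.6% with USP51 (79.9 to 83.3%), and SAA2 18.6% (17.4 to 19.8%) and 17.5% (15.9 to 19.2%). These shares of counts are not divided by transcript length, and their intervals overlap between the 2 groups. In TPM, which is, SAA1 held 87.0% and 87.8%.

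The deposited table lists 7 transcripts for the 4 genes, and each of the 5 transcripts of SAA1 and SAA2 was lower with USP51 in SW480. NM_199161.5 carried 92.8% of SAA1 counts in controls and 93.4% with USP51, with a ratio of 0.474 (0.446 to 0.504). The other SAA1 transcripts were NM_000331.5, at 218.8 and 98.3 counts (ratio 0.441, 0.343 to 0.560), and NM_001178006.2, at 33.3 and 13.2 counts (ratio 0.388, 0.187 to 0.754). The GENCODE models of the 3 have the same coding sequence and differ outside it. For SAA2, NM_030754.5 stood at 568.7 and 252.5 counts (ratio 0.436, 0.373 to 0.505). NM_001127380.3, an alternative form with a shorter coding sequence in GENCODE (252 bases), stood at 236.3 and 106.5 counts (ratio 0.442, 0.347 to 0.557). It held 29.3% of SAA2 counts in controls but 6.56% of SAA2 TPM, because the table gave it 5.92 times as many counts per TPM as NM_030754.5. With USP51 its shares were 29.7% and 6.61%. The make-up of each gene by transcript thus differed by less than its counting interval while the level was lower.

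**Figure D2:**
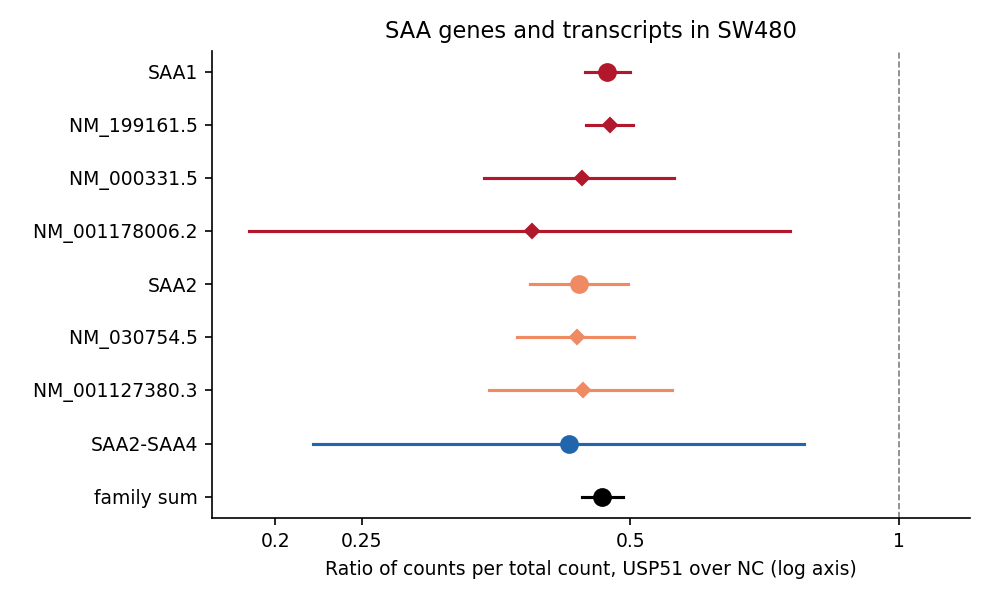
Ratio of counts per total count in SW480, USP51 over NC (log axis), for SAA1, SAA2 and SAA2-SAA4 (circles), the transcripts of SAA1 and SAA2 (diamonds) and the family sum; lines are 95% exact intervals of counting error only. Every point lies between 0.388 and 0.474, and no interval reaches 1.

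The differences were then set among those of all SW480 genes. Of the 4 members, 3 reached 1 TPM in SW480, and all 3 were at least 2-fold lower on log2(TPM + 1), beside 15 of 12175 genes (0.123%) over the whole transcriptome, a list that includes these 3. Since the members were picked for this contrast, the count supports nothing further. The median log2 ratio of all 12175 genes was -0.04, and 61.1% of them lay below control. Ordered from the lowest log2 ratio, SAA2 was in place 4, SAA1 in place 9 and SAA2-SAA4 in place 14. By level, SAA1 was number 118 of 17818 genes in SW480 controls and number 226 with USP51, and SAA2 number 750 and number 1733. The difference of the SAA1 means, USP51 minus NC, was -728.3 TPM, and only ANXA2 among the 12175 genes had a more negative one (3783 and 3042 TPM).

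**Figure D3:**
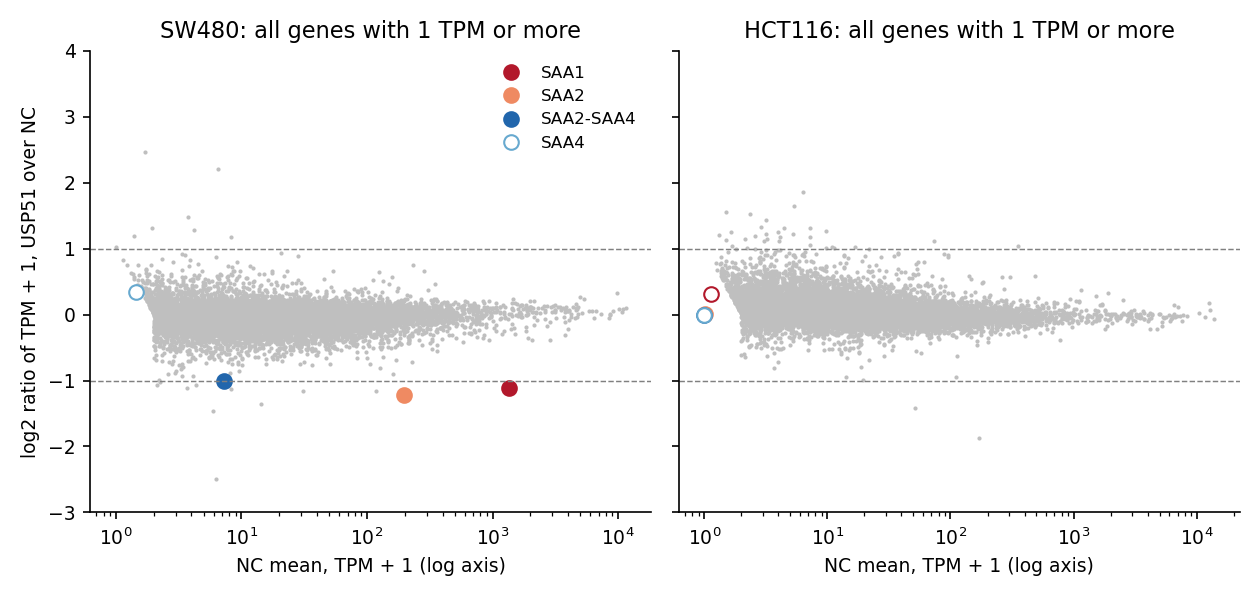
Each point is a gene, with its NC mean as TPM + 1 on the x axis (log axis) and its log2 ratio of TPM + 1, USP51 over NC, on the y axis, in SW480 (left) and HCT116 (right); genes with at least 1 TPM in 1 of the 2 groups are grey, USP51 itself is not drawn, and open circles are members under 1 TPM. SAA1 (log2 ratio -1.12) and SAA2 (-1.22) lie below the 2-fold line at high abundance in SW480.

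HCT116 cells held almost no serum amyloid A RNA. The family sum was 0.147 TPM in controls and 0.427 TPM with USP51, from 0.667 and 1.33 counts, and no count ratio is given at that depth. A count of 0 in a control mean of 15823540 reads allows up to 0.190 CPM. A lower level with USP51 could thus not have been detected in HCT116. A higher level could have been, but no member reached 1 TPM with USP51 there. A difference in response between the lines could not be tested. Between the control groups, the family was higher in SW480 by a count ratio of 6588, with an interval of 788 to 173516 that rests on less than 1 read on the HCT116 side. With 3 counts put in for the HCT116 mean, SAA2-SAA4 was 12.6-fold higher in SW480. The exact lower limit of 9.66 was taken with 0 counts in HCT116, so it is not the limit of that ratio.

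The overexpressed gene, USP51, had means (NC first) of 0.513 and 25.7 TPM in SW480, and in HCT116 of 0 and 40.8 TPM. Mean total counts were 15506686 to 15920306 per group. Colon epithelium markers summed to 4917 to 10193 TPM, with 6 of 7 at 1 TPM or more in each group and KRT20, a marker of differentiated cells, as the one below in SW480. Most of that sum was KRT8 and KRT18. Within the list VIL1, a gene of the intestinal brush border, was past 1.5-fold higher with USP51 in SW480, at 7.55 and 12.5 TPM (ratio 1.70, 1.52 to 1.91). Of all genes in SW480, 0.534% were that much higher. The epithelial cadherin gene CDH1 was at 9.4 and 7.19 TPM there (ratio 0.790, 0.686 to 0.910). The part of these markers in the SAA difference was not tested. Hepatocytes are the main source of SAA proteins in the blood, and 3 hepatocyte markers with values (ALB, APOA2 and CYP2E1) summed to 0.213 to 1.49 TPM, none at 1 TPM. Macrophage markers summed to 6.09 and 7.01 TPM in SW480 (NC first), mostly CD68 and CD14, with PTPRC, the pan-leukocyte gene, at 0. Fibroblast markers summed to 1.74 and 1.5 TPM there, mostly the collagen gene COL1A1 (1.58 and 1.33 TPM), with DCN at 0 and 0.010 TPM. In HCT116 macrophage markers summed to 8.12 and 7.85 TPM and fibroblast markers to 10.1 and 15.3 TPM. Most of the latter was COL1A1, at 9.95 and 15.1 TPM (ratio 1.49, 1.34 to 1.65).

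The neighbours of the cluster did not share its difference. Members span 38.6 kb. Of the 5 genes with values on each side, 5 of 10 reached 1 TPM in SW480, and their log2 ratios ran from -0.15 to 0.16, with 0 past 1.5-fold. Genes past 1.5-fold lower made up 0.879% of all genes tested in SW480, and genes past 1.5-fold higher 0.534%. The nearest on the right, HPS5, which encodes a subunit of a complex for lysosome-related organelles, had SW480 means of 15 TPM (NC) and 13.5 TPM (USP51). GTF2H1, a subunit gene of the transcription factor TFIIH, was at 44.6 and 45.3 TPM. The glycolysis enzyme gene LDHA, at 1573 and 1763 TPM, was above its control value. To the left, SAAL1, named for its likeness to SAA, was at 74.8 and 72.6 TPM and SERGEF at 17.2 and 15.4 TPM. MRGPRX4, MRGPRX3, TPH1, LDHC and LDHAL6A were under 1 TPM in both SW480 groups.

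**Figure D4:**
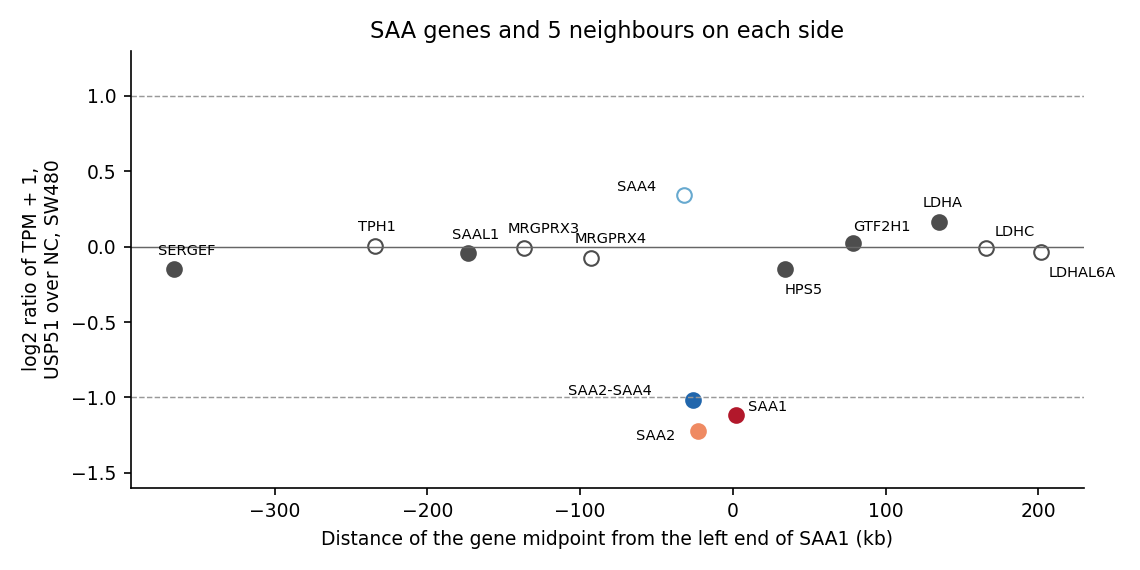
log2 ratio of TPM + 1, USP51 over NC, in SW480 against the distance of each gene's midpoint from the left end of SAA1 in kb, for the 4 members (coloured) and 5 genes on each side (grey); open circles are genes under 1 TPM in both groups, and dashed lines mark 2-fold. SAA1, SAA2 and SAA2-SAA4 lie at or under the lower line, and the grey points between -0.15 and 0.16.

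The inducers of these genes were sparse. Of 8 cytokine genes with values, 3 reached 1 TPM in SW480, with 2 below and 1 above control and 0 past 1.5-fold. Among all genes tested there, 61.1% lay below control, 0.879% were past 1.5-fold lower and 0.534% past 1.5-fold higher. TNF, which acts through NF-kB, had SW480 means of 4.18 TPM (NC) and 2.47 TPM (USP51), from 61.3 and 38.0 counts (ratio 0.608, 0.397 to 0.932). By this count ratio TNF was past 1.5-fold lower. Its log2 ratio of TPM + 1, on which the 1.5-fold rule was applied, was -0.578, just short of the rule. TNF was listed at 0 in both HCT116 groups. LIF, an activator of STAT3, was at 73.3 and 70.8 TPM in SW480, and IL11 at 1.78 and 2.48 TPM. The classical inducers of SAA1 were near absent: IL1B was at 0.0533 and 0.0267 TPM in SW480 and IL6 at 0 and 0.07 TPM. IL18 was at 82.9 TPM in HCT116 controls and at 0 in SW480 controls.

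Cytokine receptors lay on both sides of their control level. In SW480, 4 of 8 tested lay above and 4 below control, the side of 61.1% of all genes. Of these 8, 0 were past 1.5-fold, beside 0.879% of all genes lower and 0.534% higher by that much. The receptors had a median log2 ratio of -0.09, beside -0.04 for all genes. The lowest ratio among them was that of IL1RAP, a subunit gene of the interleukin-1 receptor, at 3.29 and 2.05 TPM. Its count ratio was 0.643 (0.424 to 0.942), and its log2 ratio of TPM + 1, on which the 1.5-fold rule was applied, was -0.49. IL1R1, another interleukin-1 receptor gene, was near absent in SW480, at 0.0367 and 0.107 TPM, and stood at 5.21 and 5.73 TPM in HCT116. LIFR was at 0 in both SW480 groups, and OSMR at 0.00667 and 0.0533 TPM. In HCT116 the median was 0.13, beside 0.04 for all genes, and 8 of 10 were above control, as were 60.8% of all genes. None of the 10 was past 1.5-fold there, where 1.96% of all genes were that much higher and 0.145% that much lower. The TNF receptor gene TNFRSF1B had SW480 means of 102.7 and 103.9 TPM and HCT116 means of 0.537 and 0.697 TPM. TNFRSF1A, the other TNF receptor gene, was at 52.9 and 55.2 TPM and at 61.8 and 55.6 TPM. IL6ST, the shared signalling chain of the interleukin-6 family, had SW480 means of 23.2 and 19.9 TPM and HCT116 means of 7.48 and 9.35 TPM. IL10RB had SW480 means of 21.9 and 19.0 TPM.

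The transcription factors that act at SAA promoters mostly lay within 1.5-fold of control in SW480, some above and some below. Of 13, 6 lay above and 7 below control, the side of 61.1% of all genes. Their median was -0.04, which is also the median of all genes. The member past 1.5-fold was CEBPA, at 2.79 and 5.29 TPM (ratio 1.96, 1.46 to 2.67), on the opposite side of control from SAA1. Of all genes in SW480, 0.534% were that much higher. CEBPD was at 114.5 and 141.0 TPM (ratio 1.27, 1.18 to 1.37) and CEBPB at 56.0 and 57.5 TPM. SP1 was at 22.7 and 23.9 TPM (ratio 1.08, 1.01 to 1.16). Below control were NFKB1 at 26.3 and 22.8 TPM (ratio 0.901, 0.822 to 0.987) and REL at 29.2 and 26.2 TPM (ratio 0.927, 0.883 to 0.974). STAT3 was at 25.3 and 22.3 TPM (ratio 0.931, 0.857 to 1.01). RELA, the NF-kB subunit gene, was at 80.7 and 78.6 TPM, and MAZ, which encodes the SAA-activating factor, at 72.1 and 66.6 TPM. In the control lines RELA and CEBPB were close, with 77.1 and 55.7 TPM in HCT116. CEBPD was at 14.9 TPM there, a ratio of SW480 to HCT116 of 7.72 (6.52 to 9.20). Also past 1.5-fold higher in SW480 were RELB (25.9 against 6.06 TPM, ratio 4.32, 3.55 to 5.29) and REL (ratio 1.87, 1.76 to 1.98). Past 1.5-fold lower in SW480 were CEBPA (ratio 0.376, 0.281 to 0.50), MAZ (0.598, 0.562 to 0.636) and TFAP2A (0.159, 0.120 to 0.207). The share of all genes past 1.5-fold between the control lines is not given here, so these members are listed and not weighed. Genes of NF-kB and STAT3 feedback, many of them NF-kB targets, had a median of -0.18 in SW480, with 6 of 7 below control, as were 61.1% of all genes, and 0 past 1.5-fold. The member above control was SOCS3, at 7.32 and 8.61 TPM (ratio 1.21, 0.994 to 1.47). NFKBIA, which holds NF-kB in the cytoplasm, was at 75 and 60.5 TPM (ratio 0.832, 0.759 to 0.913). TNIP1 was at 107.6 and 95.1 TPM, NFKBIB at 81.0 and 75.3 TPM and NFKBIE at 15.2 and 13.5 TPM.

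Few other positive acute-phase genes were expressed in SW480. Of 18 with values, 3 reached 1 TPM in SW480, all 3 below control, the side of 61.1% of all genes, and 0 past 1.5-fold (median -0.25). SERPINA1, the protease inhibitor alpha-1-antitrypsin, was at 213.2 and 163.6 TPM (ratio 0.772, 0.737 to 0.808). LCN2, an iron-scavenging protein that NF-kB also induces, was at 161.4 and 154.4 TPM (ratio 0.984, 0.897 to 1.08), and complement C3 at 7.08 and 5.80 TPM. In HCT116 all 4 tested lay above control, the side of 60.8% of all genes, and 2 were past 1.5-fold higher, as were 1.96% of all genes. These were LCN2 at 5.66 and 10.7 TPM (ratio 1.86, 1.2 to 2.99) and SERPINA1 at 3.32 and 5.67 TPM (ratio 1.85, 1.35 to 2.58). In the control lines SERPINA1 and LCN2 were higher in SW480, by ratios of 70.9 (55.1 to 92.9) and 28.6 (20.4 to 42.6). ITIH4 was at 1.34 and 1.51 TPM in HCT116 and under 1 TPM in SW480. ORM1, ORM2, FGB and PLA2G2A were at 0 in both SW480 groups. Of the negative acute-phase genes, TF was the 1 above 1 TPM, at 1.53 and 1.66 TPM in SW480, and ALB, APOA1, RBP4 and AHSG were under 1 TPM in all 4 groups.

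Of the receptors and lipoprotein partners of SAA, 7 reached 1 TPM in SW480, 3 above and 4 below control with a median of -0.12. Among all genes there, 61.1% lay below control and the median was -0.04. APOE, an apolipoprotein gene, was past 1.5-fold lower, as were 0.879% of all genes, at 104.6 and 62.1 TPM (ratio 0.612, 0.553 to 0.678). SCARB1, the high-density lipoprotein receptor gene, was at 65.1 and 74.3 TPM, the phospholipid transfer gene PLTP at 37.2 and 31.5 TPM and LCAT at 6.53 and 5.40 TPM. FPR1 and CD36 were at 0 in both SW480 groups.

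**Figure D5:**
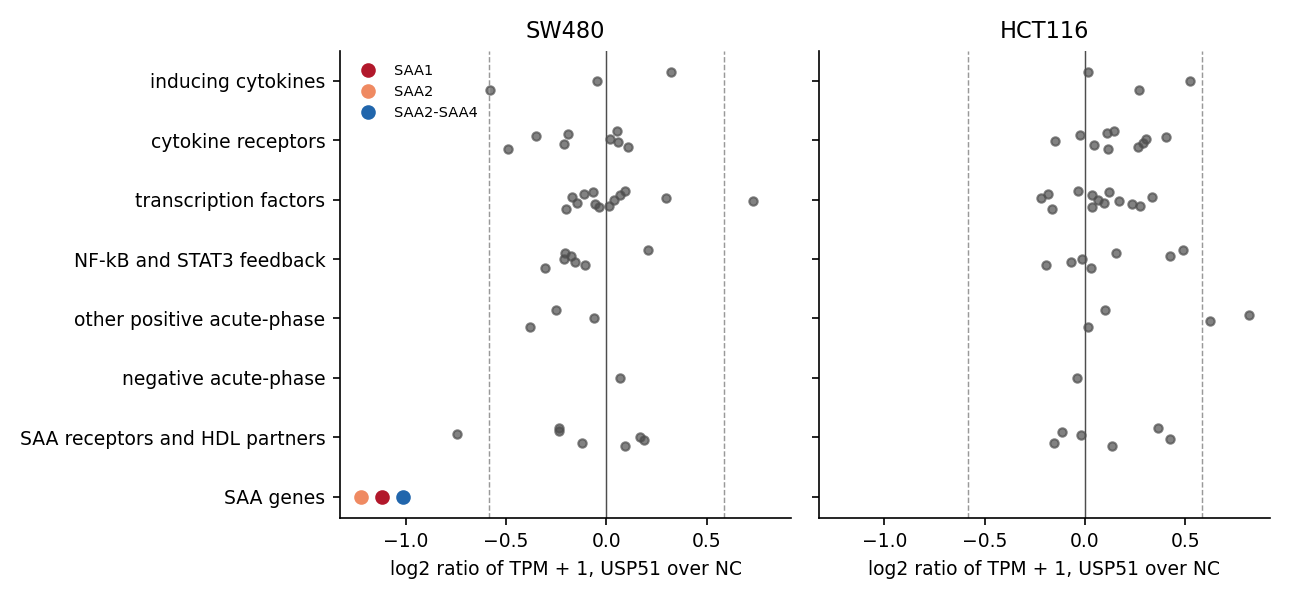
log2 ratio of TPM + 1, USP51 over NC, in SW480 (left) and HCT116 (right), 1 point per gene with at least 1 TPM in 1 of the 2 groups, by gene list, with the SAA genes in the bottom row; dashed lines mark 1.5-fold. In SW480 the SAA genes, from -1.22 to -1.01, lie to the left of every listed gene, the nearest being APOE at -0.74. The SAA genes were picked for this contrast, so their place supports nothing further. No SAA gene reaches 1 TPM in HCT116.

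The genes most like SAA1 over the 4 group means were sought by the Euclidean distance between log2(TPM + 1) values centred on each gene's mean, among 13235 other genes. The 5 nearest were CST7 (distance 1.44), APCDD1 (1.49), KRT5 (1.68), VIM (1.72) and QPCT (1.74), and SAA2 came in place 10 (2.54). This measure is carried by the gap between the lines. All 5 were at 243.3 TPM or more in SW480 and at 2.28 TPM or less in HCT116, but their SW480 ratios were unlike that of SAA1. CST7, a cystatin gene, was at 346.9 and 476.6 TPM (ratio 1.41, 1.34 to 1.49), the WNT inhibitor gene APCDD1 at 327.3 and 252.9 TPM (ratio 0.796, 0.775 to 0.816) and the keratin gene KRT5 at 2871 and 2200 TPM (ratio 0.790, 0.780 to 0.799). The intermediate filament gene VIM was at 732.5 and 731.5 TPM and QPCT at 255.7 and 243.3 TPM.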

How the data were processed

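The authors deposited 1 table with 84345 rows of RefSeq transcripts and 17818 NCBI gene identifiers. It holds the authors' group means as estimated counts, which need not be whole, as TPM, which the authors brought to a fixed total, and as FPKM, which the authors divided by length and depth, per the file headers. The submitters' processing notes name TopHat, DESeq 1.32.0 and hg38, without roles. The 36 single-library columns were not used, because their codes match no label, so the tests that replicates allow were left out.

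Transcripts were summed per gene, and symbols were taken from RefSeq (GRCh38.p14; 17672 genes matched). Log2 ratios were taken of TPM + 1, for genes with at least 1 TPM in 1 of the 2 groups, and 2-fold and 1.5-fold are rules of size. Count ratios have 95% exact intervals (Clopper-Pearson, given the sum of both counts, each rounded to a whole number), computed with scipy 1.17.1. Means at or under 3 counts on both sides get no ratio. PCR copies are not independent molecules, so intervals and floors cover counting error only. The size rule and intervals were tried on simulated counts with known folds and counting error alone. That trial does not cover replicate spread or reads shared between paralogs.

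The members and the 7 lists (83 genes, 75 with values) were chosen with earlier results of these data known. Named from each list were genes past 1.5-fold in either line, the 4 most abundant, and defining genes at or near 0. ANXA2, IL1RAP, IL1R1, LIFR, OSMR, NFKB1, RELB, REL, STAT3, SP1, TFAP2A and SOCS3 were named after their values were seen. The alternatives were a pseudocount of 0.1, FPKM, CPM with no factors or with RLE or TMM factors from edgeR 4.0.16 (R 4.3.3), curated transcripts, no filter, and SAA1 with SAA2 alone. Coding sequences were cut from GENCODE release 29 transcripts matched by RefSeq identifier without its version.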

Additional observations from a re-analysis of the deposited data

How the results depend on the processing

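All 50 alternative values of the family and its members, in SW480 and between the control lines, kept their direction. Those from curated transcripts repeat the main values, since all 7 transcripts of the members are curated. Between the control lines the direction was set in advance, since HCT116 was near 0. The family log2 ratio in SW480 ran from -1.13 to -1.08, that of SAA1 from -1.12 to -1.06 and that of SAA2 from -1.23 to -1.14. SAA2-SAA4 ran from -1.24 to -0.75 and was less than 2-fold lower with FPKM and in CPM, with or without factors. Between the control lines the family log2 ratio ran from 8.06 to 12.6, and its size depends on the pseudocount because HCT116 was near 0. With a pseudocount of 0.1, the genes at least 2-fold different over the whole table were 29 higher and 45 lower in SW480 and 117 higher and 10 lower in HCT116, and 3 members were still among the lower in SW480. A family ratio in HCT116 was not compared between settings, since each mean rests on fewer than 2 counts. Replicates could not be left out in turn, as only means were used. No paired analysis was possible because the columns used carry no replicate number.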
